A study of Mus musculus with 4 samples.

Results

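Collagens are the triple-helical proteins of the extracellular matrix, and the mouse makes their chains from a large gene family. The genes described here are the 42 rows of the deposited table whose symbol has the form Col, a type number, the letter a and a chain number, out of 22222 genes. Col17a1, a hemidesmosomal chain, also has this form and was left out. By the kind of assembly they build, 11 encode fibrillar chains, 9 network-forming chains, 9 FACIT chains (fibril-associated collagens with interrupted triple helices), 6 beaded-filament chains, 3 transmembrane chains and 4 other chains. The data were 4 strand-preserving, ribosomal RNA-depleted RNA-seq libraries of keratoacanthomas, skin tumours of mice that had received the carcinogen DMBA for 20 weeks. Of these, 2 came from mice kept without DMBA for 1 week and 2 from mice still on DMBA (0 weeks), each from a different mouse by the mouse identifiers. RNA came from cells that had been sorted for Tomato and P-cadherin, and the labels call them epithelial ("Epi"). The labels do not state strain, age, sex or the driver of Tomato, so which cells carried Tomato is unknown here.

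Fibrillar collagens, mainly types I, III and V, form the dermal fibres and are made chiefly by fibroblasts. Type IV forms the sheet of basement membranes, and type VII anchors the epidermal basement membrane to the dermis. FACIT chains sit on the surface of fibrils, type VI forms beaded microfibrils around cells, and transmembrane collagens are anchored in the plasma membrane with a collagenous ectodomain outside the cell.

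Levels are given as scaled CPM, reads per gene relative to a scaled library size, in the order replicate 1, replicate 2. The libraries held 5551937 to 9678682 reads. The libraries also differed in cell type markers. Summed over 12 keratinocyte genes, including Krt5, Krt14, Cdh3 (P-cadherin) and Epcam, the level was 4509 and 4007 at 1 week and 55542 and 567 on DMBA. Summed over 10 fibroblast genes, including Pdgfra, Dcn and Lum, it was 4394 and 4659 at 1 week and 36.3 and 3560.4 on DMBA, and 4 of the 10 were under 1 scaled CPM in on-DMBA replicate 1. Summed over 8 leukocyte genes it was 5339 and 9917 at 1 week and 14.1 and 13455 on DMBA, and over 6 endothelial genes it was 616 and 1409 at 1 week and 5.34 and 164 on DMBA. On-DMBA replicate 1 thus had the highest level of all 12 keratinocyte genes and the lowest of all 10 fibroblast, 8 leukocyte and 6 endothelial genes, and on-DMBA replicate 2 had the lowest keratinocyte sum. The other 3 libraries held abundant fibroblast, leukocyte and endothelial transcripts under an epithelial label. The part of these marker differences in the collagen results was not tested, and in these bulk libraries fewer cells of a type cannot be told apart from less RNA per cell.

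Collagen transcripts took up a far smaller part of on-DMBA replicate 1 than of the other libraries. They made up 9.72% (95% Wilson interval 9.70 to 9.75) and 7.53% (7.51 to 7.55) of reads at 1 week, and 0.300% (0.297 to 0.304) and 6.72% (6.70 to 6.74) on DMBA. The intervals cover counting error only. Fibrillar chains gave 63.9% and 66.3% of the collagen reads at 1 week and 6.22% and 65.5% on DMBA. Type VII, XV, XVIII and XXVIII chains together gave 6.53% and 4.41% of the collagen reads at 1 week and 60.9% and 4.64% on DMBA. By share, these 2 groups of chains thus changed places in on-DMBA replicate 1. In level, Col18a1 was at 1129.7 scaled CPM there, against 868 and 1392 at 1 week and 965 in on-DMBA replicate 2. Col7a1 was at 969.8 there, below both 1-week libraries and above on-DMBA replicate 2. Col15a1 and Col28a1 were at 0.356 and 0.712 there, below every other library. Network chains gave 6.71% and 11.5% at 1 week and 6.49% and 19.7% on DMBA, and beaded-filament chains gave 14.3% and 11.02% at 1 week and 1.17% and 6.56% on DMBA. FACIT chains gave 8.21% and 6.47% at 1 week and 24.3% and 3.46% on DMBA. Counting error on these shares was at most 0.561 percentage points either way. The library with the highest keratinocyte markers therefore had a collagen make-up of its own, led by types XVIII, VII and XII, while the 3 others shared one led by type III and type I chains. The left-out Col17a1 was at 601 and 235 at 1 week and 3921 and 46.7 on DMBA.

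**Figure D1:**
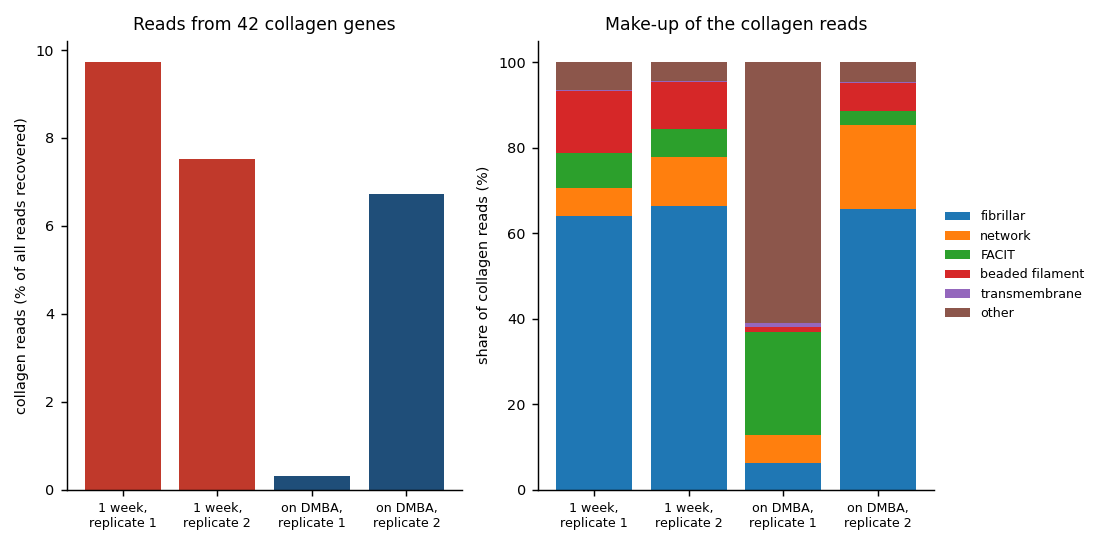
Left, reads from the 42 collagen genes as a percentage of all reads in each library; right, the share of those reads by chain type, with the 1-week libraries left of the on-DMBA libraries. On-DMBA replicate 1 holds 0.300% collagen reads, of which 60.9% belong to the other types (VII, XV, XVIII and XXVIII).

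Compared per kilobase of exon (union of protein-coding exons, GENCODE M21), the same 3 chains led in 3 of the 4 libraries. Col3a1 reached 3731 and 4972 scaled CPM per kilobase at 1 week, against 12.3 and 3713 on DMBA. Col1a2 came next, at 2671 and 2413 at 1 week and 1983 in on-DMBA replicate 2. It was followed by Col1a1, at 1578 and 1034 at 1 week and 1271 in on-DMBA replicate 2. The ranges of Col1a2 and Col1a1 did not overlap at 1 week, whereas the fourth to sixth places (Col6a1, Col5a2 and Col6a3 or Col4a1) changed between replicates. In on-DMBA replicate 1 the order was Col18a1 (166), Col7a1 (105), Col12a1 (50.1), Col16a1 (41.2) and then Col3a1.

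The design sets tumours left without DMBA for 1 week against tumours taken while DMBA went on. Of the 42 genes, 41 passed the filter of 1 scaled CPM in at least 2 libraries; Col9a1, a cartilage chain, did not and reached 0.538 at most. With limma on log2(scaled CPM + 0.5) and Benjamini-Hochberg adjustment over the 15419 genes tested, 0 of the 41 passed the adjusted threshold of 0.05 in either direction (0% of all genes), and the lowest adjusted p of a collagen gene was 0.9997. Before adjustment, 3 collagen genes (7.32%, against 2.28% of all genes) were higher with p below 0.05, namely Col24a1, Col13a1 and Col25a1, and 0 were lower (against 0.195% of all genes). edgeR on recovered reads also called 0, and DESeq2 called 2 higher, Col13a1 and Col25a1, and 0 lower, where it called 0.104% of all genes higher and 0.0195% lower. In 19 of the 41 (46.3%) both 1-week libraries lay above both on-DMBA libraries, against 14.0% of all genes, and in 0 both lay below, against 9.14% of all genes. The median log2 difference, 1 week minus on DMBA, was 1.34 over the collagen genes and -0.02 over all genes in limma, and 0.35 and 0.30 over the collagen genes in edgeR and DESeq2.

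The comparison turned on which on-DMBA library was used. On-DMBA replicate 1 held the lowest of the 4 values in 31 of the 41 genes (75.6%), against 37.5% of all genes, and the highest in 6 (14.6%), against 41.7%. Set against on-DMBA replicate 2 alone, both 1-week libraries were higher in 23 of the 41 (56.1%), against 34.6% of all genes, and both were lower in 14 (34.1%), against 26.1%. Without on-DMBA replicate 1, the median log2 difference of the collagen genes was 0.34, and limma, comparing the 1-week libraries with a single on-DMBA library, called 5 higher (12.2%, against 2.35% of all genes) and 6 lower (14.6%, against 0.999% of all genes). Those higher were Col6a4, Col7a1, Col13a1, Col24a1 and Col25a1, and those lower were Col6a5, Col6a6, Col11a1, Col15a1, Col20a1 and Col28a1. With on-DMBA replicate 2 left out instead, all those lower had positive log2 differences, at 3.57, 2.41, 3.71, 8.82, 0.87 and 3.23 in that order. Of those higher, Col6a4 then turned to -0.55 and the others stayed positive. Without on-DMBA replicate 2, the library with the lowest keratinocyte markers, the median was 3.16 and 26 were called higher (63.4%, against 14.3% of all genes) and 2 lower, Col4a5 and Col4a6 (4.88%, against 10.0% of all genes). Against on-DMBA replicate 2 alone, Col13a1, Col24a1 and Col25a1 had log2 differences of 3.41, 2.67 and 3.78. The same genes had 3.70, 5.61 and 4.63 when only on-DMBA replicate 1 was kept. Both comparisons share the 1-week libraries, and genes high in both were not counted over all genes. These values therefore do not set the 3 genes apart from the rest.

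**Figure D2:**
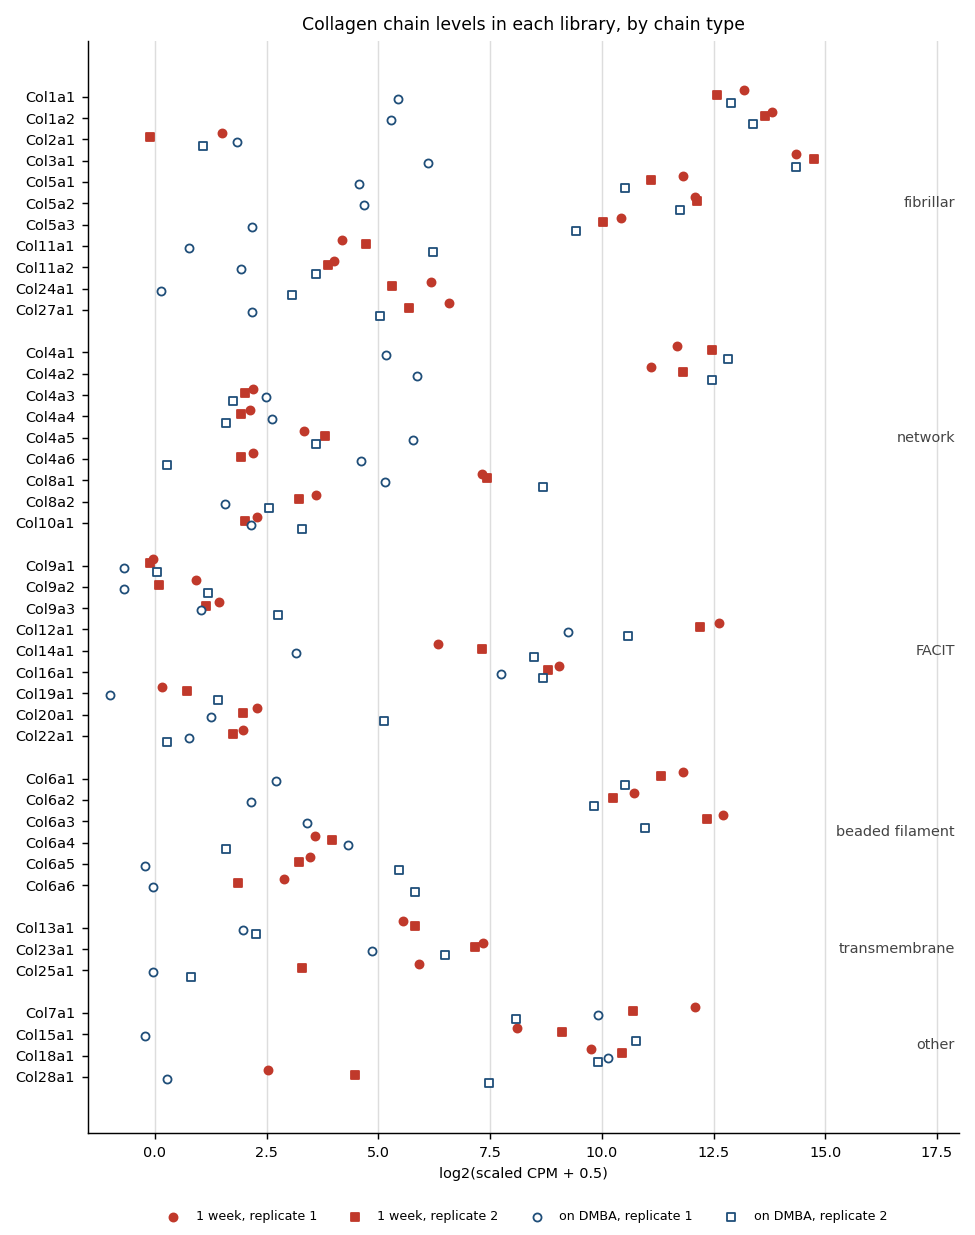
Level of each collagen gene as log2(scaled CPM + 0.5) (x axis), with genes grouped by chain type down the y axis, 1-week libraries filled and on-DMBA libraries open. The open circles of on-DMBA replicate 1 stand far to the left for most fibrillar and type VI genes, while for Col13a1 both open symbols lie left of both filled ones.

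Among the fibrillar chains, those of the main dermal fibres were alike in 3 libraries and scarce in on-DMBA replicate 1. Col3a1, the homotrimeric type III chain of extensible tissues, was at 20761 and 27662 at 1 week and 68.5 and 20658 on DMBA (log2 difference 4.33, SE 2.94). Col1a2, the second chain of type I collagen, was at 14287 and 12903 at 1 week and 38.5 and 10606 on DMBA (log2 difference 4.40, SE 2.74). Col1a1, the major chain of type I, was at 9359.6 and 6131 at 1 week and 42.9 and 7535 on DMBA (log2 difference 3.73, SE 2.51). Between the on-DMBA libraries the level differed 176-fold in Col1a1, 276-fold in Col1a2 and 302-fold in Col3a1, and on-DMBA replicate 2 lay between the 1-week values in Col1a1 and just below both in the other 2. Without on-DMBA replicate 1 the log2 differences were 0.01, 0.36 and 0.21 for Col1a1, Col1a2 and Col3a1.

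Type V chains, which nucleate the fibrils and limit their diameter, had both 1-week values above on-DMBA replicate 2 as well. Col5a1 was at 3602 and 2196 at 1 week and 23.4 and 1478 on DMBA. Col5a2 was at 4367 and 4492 at 1 week and 25.1 and 3439.8 on DMBA. Col5a3 was at 1369.7 and 1037 at 1 week and 4.04 and 686 on DMBA. Their groups did not overlap, and the log2 differences were 3.90, 3.90 and 4.42 in that order, falling short of significance in limma with SEs of 1.97 to 2.32.

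The minor fibrillar chains included the clearest differences of the type. Col24a1, a chain known from bone and cornea, was at 71.6 and 39.1 at 1 week and 0.594 and 7.90 on DMBA (log2 difference 4.14, SE 1.11, unadjusted p = 0.0124). Col27a1, a chain of cartilage and other tissues, was at 95.2 and 50.8 at 1 week and 4.04 and 32.1 on DMBA (log2 difference 2.53, SE 1.05). Both were higher in each 1-week library than in either on-DMBA library, and Col24a1 kept a log2 difference of 2.67 without on-DMBA replicate 1. Of the chains best known from cartilage, Col11a1 was at 17.8 and 26.0 at 1 week and 1.19 and 73.8 on DMBA. Its partner Col11a2 was at 15.6 and 14.3 at 1 week and 3.32 and 11.7 on DMBA, a narrow gap between the groups. Col2a1, the chain of cartilage fibrils, was at 2.34 and 0.428 at 1 week and 3.09 and 1.62 on DMBA, near the limit that 3 reads set (0.356 to 0.538 scaled CPM per library). The sum of 5 chondrocyte markers was 22.0 and 19.5 at 1 week and 3.32 and 7.90 on DMBA; its part was not tested. In all, 8 of the 11 fibrillar genes had groups that did not overlap, each higher at 1 week (against 14.0% of all genes), and 10 were lowest in on-DMBA replicate 1. Their median log2 difference was 3.90, or 0.36 without on-DMBA replicate 1, and 1.36 in edgeR and 1.31 in DESeq2.

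The 250 bases before the start annotated in RefSeq (GRCm38.p6) are printed for Col3a1, the most abundant chain, and for the 3 genes with the smallest unadjusted p, Col13a1, Col24a1 and Col25a1, to show how far these promoters differ in base composition and motifs. The files carry no coordinates, and the windows lie at chr1:45311288-45311537 (plus strand), chr10:61979109-61979358 (minus strand), chr3:145292222-145292471 (plus strand) and chr3:130180595-130180844 (plus strand). Capitals mark matches, on either strand, to the following motifs. A CCAAT box was any run of the letters CCAAT. For a TATA box the run searched was TATAAA. A GC box was read as GGGCGG. The AP-1 site was spelled TGANTCA. In the windows shown no matches overlapped.
Col3a1: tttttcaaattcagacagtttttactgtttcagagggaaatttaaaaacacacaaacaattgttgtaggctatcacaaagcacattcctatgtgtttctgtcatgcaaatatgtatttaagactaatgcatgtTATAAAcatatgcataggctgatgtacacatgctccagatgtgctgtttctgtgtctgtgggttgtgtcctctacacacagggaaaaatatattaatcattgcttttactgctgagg
Col13a1: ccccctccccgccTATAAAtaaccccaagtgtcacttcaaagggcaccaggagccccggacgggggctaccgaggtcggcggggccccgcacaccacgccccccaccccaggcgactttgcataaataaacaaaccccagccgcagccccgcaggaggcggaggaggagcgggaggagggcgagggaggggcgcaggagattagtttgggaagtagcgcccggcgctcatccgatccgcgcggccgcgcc
Col24a1: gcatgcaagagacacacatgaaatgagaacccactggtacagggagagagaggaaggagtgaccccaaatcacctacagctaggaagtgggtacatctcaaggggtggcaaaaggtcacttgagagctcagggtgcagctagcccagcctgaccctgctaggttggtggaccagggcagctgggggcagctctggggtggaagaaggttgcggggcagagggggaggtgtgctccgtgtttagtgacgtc
Col25a1: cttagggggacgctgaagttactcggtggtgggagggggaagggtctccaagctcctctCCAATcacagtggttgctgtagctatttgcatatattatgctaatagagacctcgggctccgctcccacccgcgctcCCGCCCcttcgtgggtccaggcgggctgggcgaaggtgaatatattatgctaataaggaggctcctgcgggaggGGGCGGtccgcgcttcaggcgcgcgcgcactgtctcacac
The Col3a1 window had a GC content of 35.2% and 1 TATA box, at -117 to -112 from the start. That of Col13a1 had 68.8% and 1 TATA box, at -237 to -232. That of Col24a1 had 58.0% and none of the motifs, and that of Col25a1 had 60.4% with 1 CCAAT box and 2 GC boxes. RefSeq windows were found for 34 of the 42 genes, 37 windows in all. A GC box stood in 59.5% of these windows, against 32.7% of 32851 windows of all genes, a CCAAT box in 32.4% against 33.8%, a TATA box in 10.8% against 12.4% and an AP-1 site in 2.70% against 6.75%. A match describes letters only.

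The 3 transmembrane chains had both 1-week libraries above both on-DMBA libraries (against 14.0% of all genes). Col13a1, found at cell-matrix adhesions and the neuromuscular junction, was at 46.1 and 55.9 at 1 week and 3.44 and 4.31 on DMBA. Its means were 51.0 ± 6.93 at 1 week and 3.88 ± 0.611 on DMBA (SD, n = 2 each), a log2 difference of 3.56 (SE 0.58), and it had the smallest unadjusted limma p of the collagen genes, 0.00137. DESeq2 called it with an adjusted p of 0.00134. Col13a1 was also the gene in which the on-DMBA libraries differed least among those with non-overlapping groups, by 1.25-fold.
Col25a1, a neuronal chain first described in brain amyloid, was at 59.4 and 9.27 at 1 week and 0.475 and 1.26 on DMBA (log2 difference 4.21, SE 1.07, unadjusted p = 0.0101, DESeq2 adjusted p = 0.0169). Its 1-week libraries differed from each other 6.41-fold, and the on-DMBA values rest on 4 and 7 reads. Col23a1 was at 162 and 142 at 1 week and 28.7 and 89.7 on DMBA (log2 difference 1.57, SE 0.69). The median log2 difference of the 3 genes was 3.56, or 3.41 without on-DMBA replicate 1. Transmembrane chains were the smallest share of collagen reads in every library, at 0.317% and 0.252% at 1 week and 0.947% and 0.140% on DMBA.

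**Figure D3:**
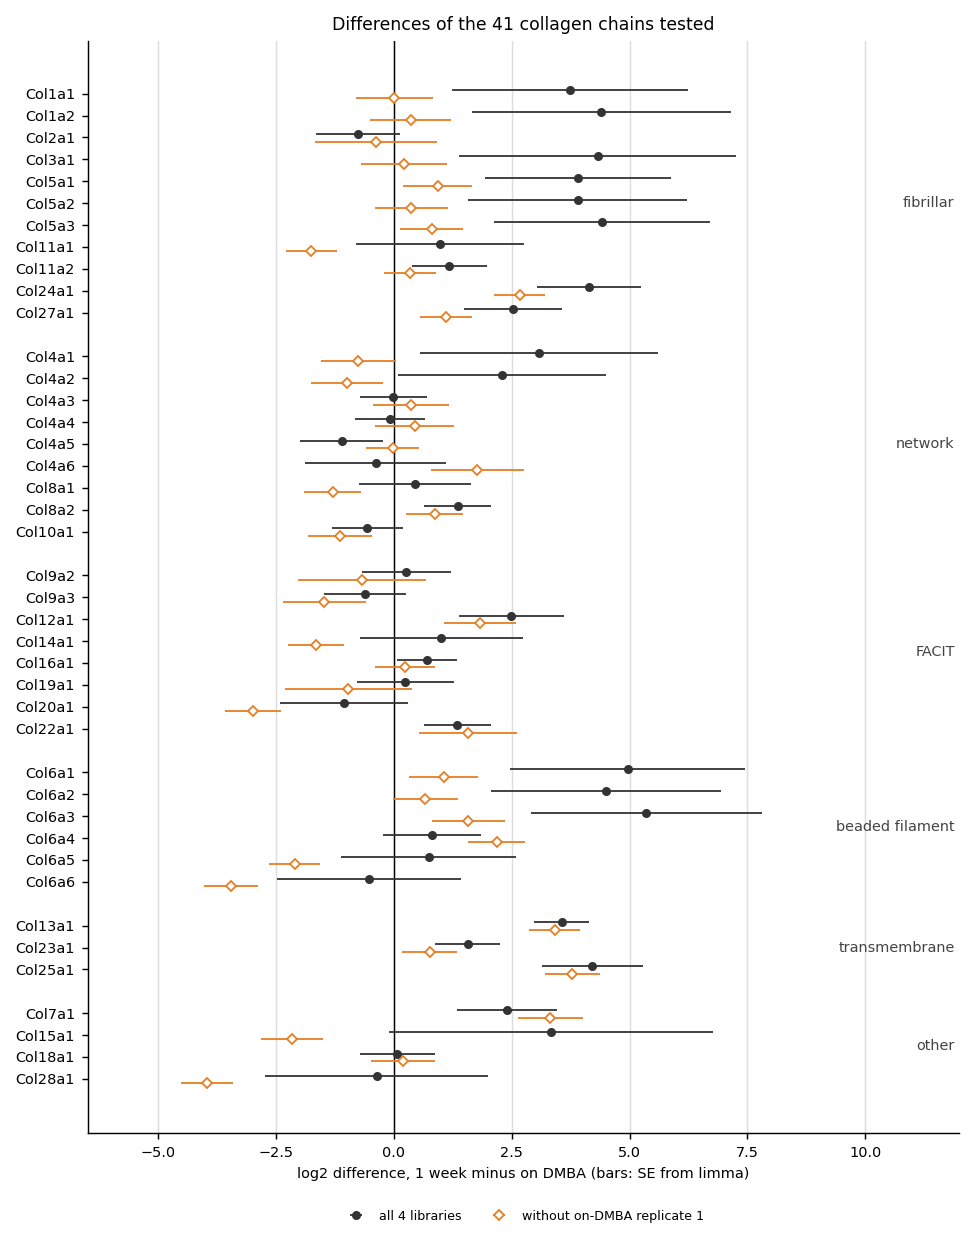
Log2 difference of the 41 collagen genes tested, 1 week minus on DMBA (x axis, bars are SEs from limma), with all 4 libraries (filled) and without on-DMBA replicate 1 (open). The filled and open symbols of Col13a1 lie close together at 3.56 and 3.41, while those of Col15a1 lie on opposite sides of 0.

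The type IV network chains fall into pairs that lie next to each other in the genome. Col4a1 and Col4a2, the chains of nearly every basement membrane, are read in opposite directions on chromosome 8, and their annotated first exons share 22 bases. Col4a1 was at 3284 and 5665 at 1 week and 35.4 and 7277 on DMBA. Col4a2 was at 2186 and 3616 at 1 week and 58.2 and 5638 on DMBA. Both were highest in on-DMBA replicate 2, so that their log2 differences, 3.08 (SE 2.53) and 2.29 (SE 2.20), were -0.75 and -1.004 without on-DMBA replicate 1. The endothelial marker sum was 616 and 1409 at 1 week and 5.34 and 164 on DMBA. All 6 of these markers were higher in both 1-week libraries than in either on-DMBA library (against 14.0% of all genes). The leukocyte marker sum was 5339 and 9917 at 1 week and 14.1 and 13455 on DMBA. The part of either list was not tested.

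Col4a5 and Col4a6, chains of the epidermal basement membrane, lie head to head on the X chromosome with 1342 bases between their annotated starts. Col4a5 was at 9.69 and 13.4 at 1 week and 53.9 and 11.7 on DMBA (log2 difference -1.11, SE 0.87). Col4a6 was at 4.06 and 3.28 at 1 week and 23.9 and 0.718 on DMBA. Both were highest in on-DMBA replicate 1, as were 41.7% of all genes. All 12 keratinocyte markers were also highest there, and their part was not tested. Without on-DMBA replicate 2, Col4a5 and Col4a6 were lower at 1 week, with log2 differences of -2.19 and -2.55. They parted in on-DMBA replicate 2; with replicate 1 of that group left out, the log2 differences of Col4a5 and Col4a6 were -0.03 and 1.77. The bases before the Col4a6 start, at chrX:141474077-141474326 (minus strand), are shown because they lie in the stretch between this pair, with the capitals as above.
Col4a6: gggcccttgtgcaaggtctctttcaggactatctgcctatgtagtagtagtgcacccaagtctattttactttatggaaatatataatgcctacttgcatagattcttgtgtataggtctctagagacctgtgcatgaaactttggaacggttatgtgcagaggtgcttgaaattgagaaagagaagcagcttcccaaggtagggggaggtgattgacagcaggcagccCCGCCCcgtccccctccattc
This window holds 1 GC box and has a GC content of 47.6%.
Col4a3 and Col4a4, best known from the glomerular basement membrane of the kidney, are neighbours on chromosome 1. They were at 4.06 and 3.57 and at 3.91 and 3.28 at 1 week, against 5.11 and 2.87 and 5.70 and 2.51 on DMBA. Neither pair of groups differed beyond the spread of its libraries.

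Of the remaining network chains, Col8a2 had groups that did not overlap. Col8a2, a chain of the corneal Descemet membrane, was at 11.7 and 8.84 at 1 week and 2.49 and 5.38 on DMBA (log2 difference 1.35, SE 0.72). Its partner Col8a1, known from vessel walls, was at 158 and 172 at 1 week and 35.3 and 409 on DMBA. Col10a1, the chain of hypertrophic cartilage, was at 4.38 and 3.57 at 1 week and 3.92 and 9.33 on DMBA. Col8a1 and Col10a1 were highest in on-DMBA replicate 2, like the abundant type IV pair. The median log2 difference of the 9 network genes was -0.01.

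Among the FACIT chains, Col12a1 and Col16a1 were abundant in all libraries, Col14a1 varied widely, and the others were scarce in most. Col12a1, which binds type I fibrils and is known from dense, loaded tissue, was at 6309 and 4708 at 1 week and 609 and 1539 on DMBA (log2 difference 2.49, SE 1.11, unadjusted p = 0.0722). Its means were 5508 ± 1132 at 1 week and 1074 ± 657 on DMBA (SD, n = 2 each), and its groups did not overlap. It gave 7.48% and 5.72% of the collagen reads at 1 week and 17.7% and 2.26% on DMBA. Col16a1, known from the upper dermis, was at 524 and 445 at 1 week and 214 and 410.3 on DMBA, again with no overlap. Col14a1, the other main fibril-surface chain of skin, was at 80.8 and 159 at 1 week and 8.43 and 359 on DMBA. The 2 related chains thus had opposite positions of on-DMBA replicate 2, below both 1-week libraries in Col12a1 and above both in Col14a1; the difference between the genes was not tested.

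The scarcer FACIT chains lay at or under 5 scaled CPM in most libraries. Col22a1, a chain of tissue junctions such as those of muscle and tendon, was at 3.44 and 2.85 at 1 week and 1.19 and 0.718 on DMBA (log2 difference 1.34, SE 0.71). Col20a1 was at 4.38 and 3.42 at 1 week and 1.90 and 34.3 on DMBA. The cartilage chain Col9a3 was at 2.19 and 1.71 at 1 week and 1.54 and 6.28 on DMBA. Apart from the 34.3 of Col20a1 in on-DMBA replicate 2, these are levels of few reads. Col9a2 was at 1.41 and 0.571 at 1 week and 0.119 and 1.79 on DMBA. Col19a1 was at 0.625 and 1.14 at 1 week and 0 and 2.15 on DMBA, where the count of 0 allows up to 0.356 scaled CPM. Over the 8 FACIT genes tested the median log2 difference was 0.48, or -0.82 without on-DMBA replicate 1, -0.049 in edgeR and -0.13 in DESeq2.

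The 3 classical type VI chains had like profiles. Col6a3, the largest chain of the trimer, was at 6759 and 5238 at 1 week and 10.1 and 1989 on DMBA (log2 difference 5.36, SE 2.45). Col6a1 was at 3581 and 2581 at 1 week and 6.06 and 1458 on DMBA (log2 difference 4.96, SE 2.49). Col6a2, its neighbour on chromosome 10, was at 1693 and 1222 at 1 week and 3.92 and 907 on DMBA. In each of these 3 the 1-week libraries lay above both on-DMBA libraries (against 14.0% of all genes). Without on-DMBA replicate 1 the log2 differences were 1.58, 1.06 and 0.66 for Col6a3, Col6a1 and Col6a2. With all 4 libraries limma called none of them.

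Col6a4, Col6a5 and Col6a6, which lie side by side on chromosome 9 and encode relatives of the Col6a3 chain, were scarce. Col6a4 was at 11.4 and 15.1 at 1 week and 19.5 and 2.51 on DMBA. Col6a5 was at 10.6 and 8.84 at 1 week and 0.356 and 43.4 on DMBA. Col6a6 was at 6.88 and 3.14 at 1 week and 0.475 and 56.4 on DMBA. On-DMBA replicate 2 was thus the lowest library for Col6a4 and the highest for Col6a5 and Col6a6, which were both lowest in on-DMBA replicate 1. Against a single on-DMBA library, without on-DMBA replicate 1, Col6a4 was higher at 1 week (log2 difference 2.18). Col6a5 and Col6a6 were lower in that setting (-2.11 and -3.46). The median log2 difference of the 6 beaded-filament genes was 2.66, or 0.86 without on-DMBA replicate 1, 1.02 in edgeR and 0.97 in DESeq2.

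Col7a1, whose product builds the anchoring fibrils under the epidermis, was at 4364 and 1666 at 1 week and 969.8 and 270.5 on DMBA. The log2 difference was 2.39 (SE 1.07, unadjusted p = 0.0723), and the groups did not overlap. Its order among the on-DMBA libraries was the reverse of that of the fibrillar chains other than Col2a1, with 3.59 times as much in replicate 1, the library with the highest keratinocyte markers. Both 1-week libraries lay above that library in Col7a1. Summed keratinocyte markers were 4509 and 4007 at 1 week and 55542 and 567 on DMBA. Summed fibroblast markers were 4394 and 4659 at 1 week and 36.3 and 3560.4 on DMBA. What part either list had in the Col7a1 level was not tested. Without on-DMBA replicate 1 Col7a1 was called higher at 1 week (log2 difference 3.31, limma adjusted p = 0.000181). Leaving out on-DMBA replicate 2 gave no call (1.47, adjusted p = 0.246). The window before the Col7a1 start, at chr9:108953336-108953585 (plus strand), is shown for comparison with those printed above and holds 1 CCAAT box and 1 GC box.
Col7a1: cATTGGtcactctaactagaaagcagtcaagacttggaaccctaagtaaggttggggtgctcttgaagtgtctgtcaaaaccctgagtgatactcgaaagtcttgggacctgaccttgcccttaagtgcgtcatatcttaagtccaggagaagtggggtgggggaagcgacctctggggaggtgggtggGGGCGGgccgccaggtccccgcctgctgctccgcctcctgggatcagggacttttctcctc
Col18a1, a multiplexin of basement membranes and the source of endostatin, kept a narrow range, at 868 and 1392 at 1 week and 1129.7 and 965 on DMBA (log2 difference 0.07, SE 0.80).

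Col15a1 and Col28a1 stood out for their level in on-DMBA replicate 2. Col15a1, the second multiplexin, known from vessel, muscle and nerve basement membranes, was at 273 and 550.3 at 1 week and 0.356 and 1739.8 on DMBA (log2 difference 3.33, SE 3.44), the lowest of these values resting on 3 reads. Col28a1, known from peripheral nerves, was at 5.31 and 21.8 at 1 week and 0.712 and 178 on DMBA. Without on-DMBA replicate 1 both were called lower at 1 week (log2 differences -2.16, limma adjusted p = 0.0315, and -3.97, adjusted p = 3.09e-10).

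Ratios of chains within a library do not depend on its scaling. Col1a1 to Col1a2 reads stood at 0.655 and 0.475 at 1 week and 1.11 (95% interval 0.956 to 1.30, counting error only) and 0.710 on DMBA, so both 1-week ratios were below both on-DMBA ratios. Col3a1 to Col1a1 was 2.22 and 4.51 at 1 week and 1.60 and 2.74 on DMBA, and the groups overlapped. Col4a1 to Col4a2 was 1.502 and 1.57 at 1 week and 0.608 and 1.29 on DMBA, without overlap. In the type VI trimer, Col6a3 to Col6a1 was 1.89 and 2.03 at 1 week and 1.67 (interval 1.16 to 2.41) and 1.36 on DMBA, and Col6a1 to Col6a2 was 2.12 and 2.11 at 1 week and 1.55 (0.978 to 2.47) and 1.61 on DMBA. Both type VI ratios were higher in each 1-week library than in either on-DMBA library, although the intervals of on-DMBA replicate 1 reach the 1-week values. Col5a1 to Col5a2 was 0.825 and 0.489 at 1 week and 0.934 and 0.430 on DMBA, which overlapped. With 2 mice per group an exact two-sided permutation test of such a ratio cannot give a p under 0.333, so none was run.

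The wider machinery of collagen was described by 4 lists holding 47 genes, of which 44 were tested and the rest were below the filter or not matched by symbol. In limma 0 passed, 6 had an unadjusted p under 0.05 and were higher at 1 week (against 2.28% of all genes), and 0 were lower at that level (against 0.195%). The 1-week libraries lay above both on-DMBA libraries in 24 and below both in 1 (Crtap), against 14.0% and 9.14% of all genes. By list these 24 were 8 of 17 genes of procollagen folding and hydroxylation, 10 of 12 of procollagen cleavage and crosslinking, 2 of 9 collagen receptors and 4 of 6 collagen-degrading proteases. The median log2 differences were 0.80, 2.62, 0.75 and 3.57 in that order.

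The genes with the smallest p in each list had both 1-week libraries above both on-DMBA libraries. They were picked by p from these same values, so this order largely follows from the choice. P4ha3, a prolyl 4-hydroxylase subunit, was at 23.3 and 18.1 at 1 week and 2.26 and 2.33 on DMBA (log2 difference 2.91). Glt25d1, a collagen galactosyltransferase, was at 218 and 285 at 1 week and 74.9 and 124 on DMBA (log2 difference 1.37). Both act on procollagen inside the cell. Adamts3, a procollagen N-proteinase, was at 10.8 and 5.13 at 1 week and 0.475 and 2.15 on DMBA (log2 difference 2.31). Loxl4, a lysyl oxidase of the crosslinking family, was at 23.3 and 27.1 at 1 week and 5.34 and 10.8 on DMBA (log2 difference 1.66).

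Among receptors, Itga11, an integrin chain that binds type I collagen, was at 24.5 and 25.8 at 1 week and 2.26 and 6.82 on DMBA (log2 difference 2.51). Ddr2, a receptor tyrosine kinase for fibrillar collagen, was at 118 and 131 at 1 week and 9.02 and 95.3 on DMBA (log2 difference 2.05). Of the proteases, Mmp9, a gelatinase that leukocytes and tumour cells can release, was at 576 and 612 at 1 week and 10.3 and 24.8 on DMBA (log2 difference 5.17). Mmp13, an interstitial collagenase, was at 593 and 2806 at 1 week and 60.2 and 259 on DMBA (log2 difference 3.36). With all 4 libraries 0 of these 8 passed in limma, and DESeq2 called Mmp9. Without on-DMBA replicate 1, the log2 differences of P4ha3, Itga11, Mmp9 and Mmp13 were 2.89, 1.81, 4.56 and 2.31. That of the integrin chain Itga2 was 1.81 in this setting and 0.04 with all 4 libraries. Crtap and Itga2 are named because of their values.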

How the data were processed

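The series was 4 RNA-seq libraries, 2 from mice 1 week after DMBA and 2 on DMBA. Per the submitters' processing notes, the tools were edgeR 3.2.3, HTSeq, TopHat2 2.1 and CASAVA 1.8.2 on mm9, with no role or order given. Gene annotation and strand setting are unknown here. The authors deposited 1 table of normalised signal per gene, named CPM, whose columns sum to 867697 to 1149287, so it is called scaled CPM. In every column 100% of entries were multiples of a fixed step (tolerance 0.01 reads), which gave back totals of 5551937 to 9678682 per library. The planned test for CPM values was kept.

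The 15419 genes that reached 1 scaled CPM in 2 or more libraries entered limma 3.58.1 in R 4.3.3 (eBayes with a trend, pseudocount 0.5, two-sided, Benjamini-Hochberg over all genes tested, threshold 0.05). Fold changes on this scale understate those of low genes. The count tests edgeR 4.0.16 (quasi-likelihood) and DESeq2 1.42.0 were run on the recovered reads, and all 3 tools were tested on simulated counts. Other alternatives were 2 pseudocounts, 2 filters, 3 scalings, 2 forms of eBayes, a replicate block and each library left out; a library left alone in its group takes its spread from the other group.

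Gene names were matched to GENCODE M21 (42 of 42 collagen genes) and RefSeq (34 of 42), both GRCm38. In M21, 13 collagen genes share 14 to 274 exonic bases with another gene, among them Col3a1, Col4a1, Col4a2, Col5a1 and Col7a1, so some of their reads may belong to it.

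The collagen genes, lists and tests were chosen with earlier results of these data known. Every collagen gene was accounted for; SEs went to Col1a1, Col1a2, Col3a1 and the 2 genes of each type with the smallest p, and to others where they bear on a comparison. Some marker gene values are not reported here.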

Additional observations from a re-analysis of the deposited data

How the results depend on the processing

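The collagen calls depended on the on-DMBA libraries and on the tool, and the depth of 5551937 to 9678682 reads leaves the genes under about 1 scaled CPM unresolved. Leaving out each library in turn, the calls over all genes ranged from 0 to 2212 higher and 0 to 1549 lower, those among collagen genes from 0 to 26 higher and 0 to 6 lower, and those among the 44 other collagen-related genes from 0 to 31 higher and 0 to 3 lower; both left-out 1-week libraries gave 0. DESeq2 called 16 genes higher and 3 lower, 2 collagen genes higher and 1 related gene (Mmp9) higher. With the replicate number as a block, limma called 285 genes higher and 3 lower, 8 collagen genes higher and 10 related genes higher. The numbers mark different mice, and the replicate differences of the groups correlated at r = 0.015 over genes, so the block is not taken as a pairing. The collagen median of 1.34 was 0.34 to 3.16 with a library left out, 0.35 in edgeR, 0.30 in DESeq2, 2.49 with a filter of 5 scaled CPM, 1.45 with plain CPM of recovered reads and 0.91 with quantile normalization. The last 2 shift the median of all genes from -0.02 to 0.11 and -0.15. In edgeR and DESeq2 the medians were 1.36 and 1.31 for fibrillar, -0.12 and -0.17 for network, -0.049 and -0.13 for FACIT, 1.02 and 0.97 for beaded-filament and -0.47 and -0.53 for the other types. The beaded-filament median was 0.86 to 5.96 and that of the other types -0.99 to 2.35 with a library left out. The transmembrane median of 3.56 was 2.90 to 3.70 with a library left out, 3.37 with quantile normalization, 3.76 in edgeR and 3.72 in DESeq2, and the network median was 1.35 with a filter of 5 scaled CPM, which tests fewer genes.

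The direction turned in 20 collagen genes when a library was left out. None of these was called by limma with all 4 libraries. Some, such as Col6a5, Col11a1 and Col15a1, were called in opposite directions when 1 or the other on-DMBA library was left out. The log2 differences then ranged from -1.57 to 0.046 for Col2a1, -1.75 to 3.71 for Col11a1, -0.75 to 6.91 for Col4a1, -1.004 to 5.58 for Col4a2, -0.38 to 0.35 for Col4a3, -0.60 to 0.44 for Col4a4, -2.55 to 1.77 for Col4a6, -1.30 to 2.21 for Col8a1 and -1.14 to 0.011 for Col10a1. They ranged from -0.68 to 1.21 for Col9a2, -1.48 to 0.25 for Col9a3, -1.66 to 3.67 for Col14a1, -0.97 to 1.44 for Col19a1, -2.99 to 0.87 for Col20a1, -0.55 to 2.18 for Col6a4, -2.11 to 3.57 for Col6a5, -3.46 to 2.41 for Col6a6, -2.16 to 8.82 for Col15a1, -0.27 to 0.41 for Col18a1 and -3.97 to 3.23 for Col28a1. In edgeR and DESeq2 they were -0.78 and -0.83 for Col11a1, -0.42 and -0.47 for Col8a1, -0.63 and -0.68 for Col14a1, -0.23 and -0.33 for Col19a1, -1.16 and -1.21 for Col6a5 and -1.10 and -1.15 for Col15a1, and in DESeq2 -0.038 for Col4a2. With plain CPM they were 0.12 for Col4a3 and 0.052 for Col4a4, and with quantile normalization -0.39 for Col9a2 and -0.40 for Col19a1. The cause was not tested.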
